A study of Mus musculus with 2 samples.

Results

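The 9 genes described here are Rbm20, which encodes an RNA-binding splicing factor, 3 of its best-known splicing targets (Ttn, Camk2d and Ryr2) and 5 genes of other muscle splicing regulators (Rbm24, Mbnl1, Mbnl2, Celf1 and Rbfox1), out of 32285 genes in the count table. They were chosen by name, with earlier results of these data known. Rbm20 was chosen for its difference between the muscles and between fibre types, so its levels are a description and support nothing. Nuclei were isolated from plantaris and gastrocnemius, a pair of calf muscles rich in fast fibres, of C57BL/6 mice aged 12 weeks. The labels used here name no treatment and no genotype beyond the strain, and the number of mice behind each library is not given in the sources used here. Each muscle is 1 library of single-nucleus RNA sequencing (10x Chromium 3' chemistry), so muscle, animal and library cannot be told apart, nuclei are not replicates, and no test between muscles was possible. Intervals in parentheses are exact 95% intervals that cover counting error only.

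RBM20 binds introns of pre-mRNA and represses the use of neighbouring exons. In the heart it sets the length of titin, the giant elastic protein that spans the sarcomere from Z-disc to M-band: with less RBM20, more of the exons of the elastic region are kept and titin becomes longer and more compliant. Titin isoforms also differ between skeletal muscles. RBM24, the muscleblind proteins (MBNL), CELF1 and RBFOX1 act on overlapping sets of exons in muscle, with MBNL and CELF1 often acting in opposite directions during development. The deposited counts are summed per gene from the 3' end, so they give the abundance of each gene's RNA in nuclei and measure no splicing of any target.

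Plantaris held 9156 nuclei with 29248275 UMIs (unique molecular identifiers, that is, counted RNA molecules) and a median of 2714 UMIs per nucleus, against 7374 nuclei, 19048595 UMIs and a median of 2260 in gastrocnemius. Clustering without the 9 genes gave 5801 myonuclei in plantaris and 5089 in gastrocnemius, with 2838 and 1760 nuclei of other named cell types. The nuclei were assigned to fibre types by the adult myosin heavy chain gene with the most UMIs: Myh4 (fast type 2B), Myh1 (fast type 2X), Myh2 (fast type 2A) or Myh7 (slow type 1). Plantaris and gastrocnemius held 4182 and 4559 Myh4 nuclei, 764 and 131 Myh1 nuclei, 568 and 174 Myh2 nuclei, and 6 and 22 Myh7 nuclei. Different clusters held most Myh4 nuclei of each library, clusters 1, 2 and 4 in plantaris and clusters 0 and 6 in gastrocnemius, so within-cluster values are given where they matter. The libraries shared 17 barcode sequences. Across all 13167 genes with 20 or more UMIs in myonuclei, the median log2 ratio of plantaris over gastrocnemius was 0.18.

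Rbm20 lies on chromosome 19 (53677306 to 53867080, plus strand, mm10), spans 189.8 kb and has up to 14 exons in an annotated transcript. The titin gene Ttn covers 278.6 kb on the minus strand of chromosome 2 (76703980 to 76982547), with up to 347 exons. Camk2d (chromosome 3, 126596302 to 126846326), Ryr2 (chromosome 13, 11553102 to 12106945, minus strand), Rbm24 (chromosome 13, 46418434 to 46431095), Mbnl1 (chromosome 3, 60472830 to 60629750), Mbnl2 (chromosome 14, 120275669 to 120431697), Celf1 (chromosome 2, 90940382 to 91019497) and Rbfox1 (chromosome 16, 5885355 to 7411526) are on the plus strand unless stated. Annotated antisense genes overlap Rbm20 and Ttn, but held few UMIs in myonuclei. Gm16299, over Rbm20, had 9 UMIs in plantaris and 15 in gastrocnemius, and Gm13938, over Ttn, had 181 and 276. Whether the counting separated strands is not given in the sources used here.

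Promoters, from 250 bases before to 50 bases after the transcription start, were taken from RefSeq (GRCm38.p6), whose table matched 8 of the 9 genes, all but Rbm20, with 10 promoters. Those of Rbm24 and Camk2d are shown because both genes, with Rbm20, were over 2-fold higher in nuclei of the myotendinous junction than in Myh4 nuclei of plantaris, and that of Ttn because it holds all 3 motifs searched. Capitals mark matches on either strand to CANNTG (an E-box, the letters bound by MyoD-family factors), to CTA, any 4 bases and TAG (the letters bound by MEF2) or to GGAATG (the letters bound by TEAD factors).
Ttn, chr2:76982498-76982797, minus strand: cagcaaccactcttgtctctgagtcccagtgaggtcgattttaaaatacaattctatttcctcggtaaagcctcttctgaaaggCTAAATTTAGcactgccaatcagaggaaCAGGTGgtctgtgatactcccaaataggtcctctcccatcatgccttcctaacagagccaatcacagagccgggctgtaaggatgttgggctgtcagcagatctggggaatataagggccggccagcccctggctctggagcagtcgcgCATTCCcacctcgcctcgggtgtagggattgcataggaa
Rbm24, chr13:46418050-46418349, plus strand: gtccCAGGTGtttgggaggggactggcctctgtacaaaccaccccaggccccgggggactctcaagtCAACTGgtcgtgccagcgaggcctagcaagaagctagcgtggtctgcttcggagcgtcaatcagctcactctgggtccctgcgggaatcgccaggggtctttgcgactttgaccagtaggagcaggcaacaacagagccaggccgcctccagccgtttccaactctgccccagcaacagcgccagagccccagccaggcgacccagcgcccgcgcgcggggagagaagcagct
Camk2d, chr3:126596701-126597000, plus strand: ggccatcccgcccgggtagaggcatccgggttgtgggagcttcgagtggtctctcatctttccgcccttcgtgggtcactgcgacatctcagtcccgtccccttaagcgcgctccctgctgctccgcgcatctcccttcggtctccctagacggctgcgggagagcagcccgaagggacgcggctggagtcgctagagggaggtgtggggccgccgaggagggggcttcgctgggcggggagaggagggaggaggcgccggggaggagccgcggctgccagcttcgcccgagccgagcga
The Ttn promoter held 1 match to each motif, with no overlap between them. Rbm24 held 2 E-boxes and no match to the other motifs, and Camk2d held none of the 3. Among the 10 promoters, 5 held CANNTG, 1 held the MEF2 letters and 1 held GGAATG, while 72.3%, 3.69% and 14.7% of all 32851 promoters of this length did. Such matches are letters in a window and no measure of binding.

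Rbm20 RNA was lower in plantaris than in gastrocnemius in each of the 3 fast fibre types, by the most in type 2B nuclei. In Myh4 nuclei it stood at 175.4 UMIs per 1000000 UMIs of the class (CPM) in plantaris and 1337 CPM in gastrocnemius, a log2 ratio of -2.93 (-2.99 to -2.87), or 7.62-fold. Myh1 nuclei had 482.6 CPM in plantaris and 2154 CPM in gastrocnemius (log2 ratio -2.16, -2.28 to -2.03). In Myh2 nuclei the levels were 502.3 and 1418 CPM (-1.50, -1.64 to -1.36). The slow Myh7 nuclei were too few to separate the muscles, with 2226 CPM in plantaris from 48 UMIs and 2775 CPM in gastrocnemius from 186 UMIs (-0.32, -0.81 to 0.15). Among the 3 fast fibre types the gap between the muscles was thus widest in type 2B and narrowest in type 2A. The levels of the Myh7 nuclei were the highest of the fibre types in both libraries, but rest on 6 nuclei of plantaris and 22 of gastrocnemius.

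The order of Rbm20 levels along the fibre types differed between the libraries. In plantaris, Myh4 nuclei were lowest, Myh1 and Myh2 nuclei did not differ beyond their counting intervals, and the 6 Myh7 nuclei were highest. In gastrocnemius, Myh4 and Myh2 nuclei were lowest and did not differ beyond their intervals, Myh1 nuclei were higher and the 22 Myh7 nuclei highest. Set against Myh4 nuclei of the same library, Rbm20 in Myh2 nuclei had a log2 ratio of 1.52 (1.41 to 1.62) in plantaris and 0.09 (-0.03 to 0.19) in gastrocnemius, the second of which turned to -0.07 under median-ratio scaling and -0.03 after thinning to 1000 UMIs. The ratio of Myh1 to Myh4 nuclei was 1.46 in plantaris and 0.69 in gastrocnemius.

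**Figure D1:**
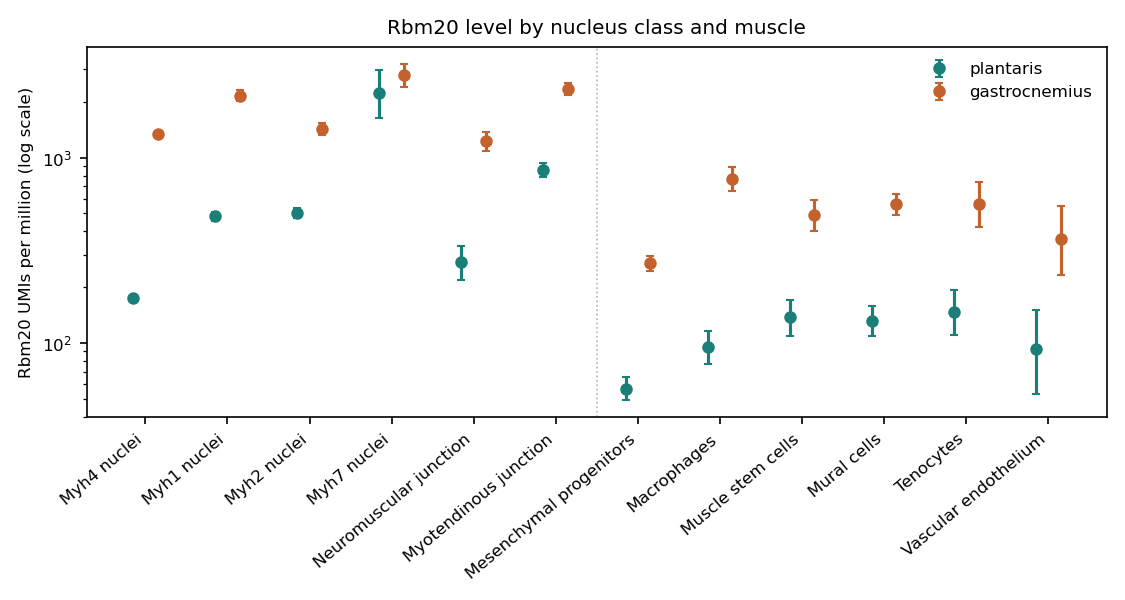
Rbm20 level (CPM, UMIs per 1000000 UMIs of the class, log scale) in each nucleus class of plantaris and gastrocnemius, with exact 95% counting intervals; myonuclear classes stand left of the dotted line. Plantaris lies below gastrocnemius in all 12 classes, and only in Myh7 nuclei do the intervals overlap.

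The difference in type 2B nuclei was also seen in the share of nuclei with an Rbm20 UMI. When each nucleus was thinned to 1000 UMIs, 14.7% of Myh4 nuclei of plantaris (13.7 to 15.9%, 610 of 4136) and 65.6% of those of gastrocnemius (64.1 to 67.0%, 2902 of 4427) had an Rbm20 UMI. 46 and 132 shallower nuclei were left out, and the unthinned shares were 36.0% and 87.2%. Nuclei with 2 or more thinned Rbm20 UMIs made up 2.85% in plantaris and 36.6% in gastrocnemius. The highest single nucleus had 5 thinned UMIs in plantaris and 13 in gastrocnemius. In nuclei of other cell types the thinned shares were 4.71% of 2166 nuclei in plantaris and 20.4% of 1159 in gastrocnemius. A larger part of these cells was too shallow, with 672 and 601 nuclei left out. Before thinning, their median nucleus held 1511 and 1242 UMIs (Myh4 nuclei held 3422 and 2940). Each Myh4 share lay above the share in other cells of its own library, while the share in other cells of gastrocnemius exceeded that in Myh4 nuclei of plantaris.

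**Figure D2:**
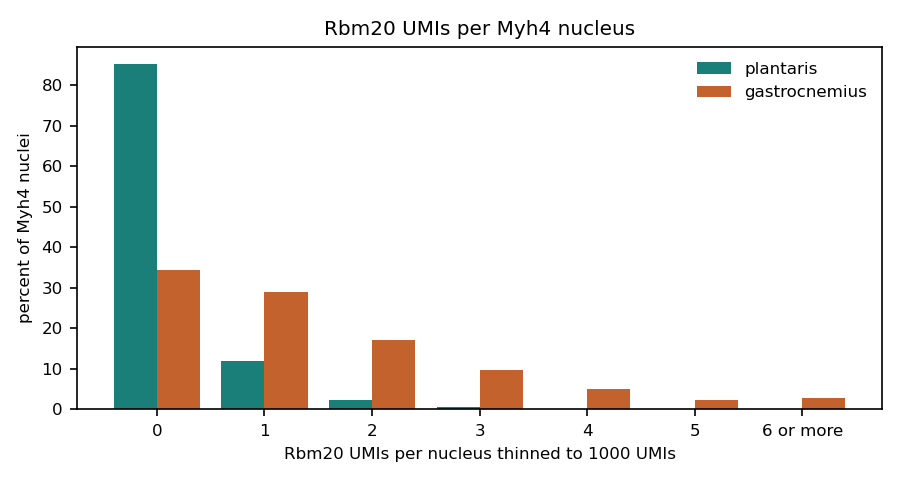
Share of Myh4 nuclei (percent) by their number of Rbm20 UMIs after thinning to 1000 UMIs per nucleus, for plantaris and gastrocnemius. In plantaris 85.2% of nuclei hold none and few hold more than 1, whereas gastrocnemius holds none in 34.4% and has a tail to 6 or more.

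The gap was present at each sequencing depth and in each cluster examined. With Myh4 nuclei split into 3 groups of equal size by depth, shallowest first, Rbm20 stood at 196.5, 178.6 and 166.3 CPM in plantaris and at 1564, 1317 and 1275 CPM in gastrocnemius. Over the 7 clusters with 20 or more Myh4 nuclei of both libraries, the log2 ratio ran between -3.72 (cluster 4, 107.3 CPM in plantaris and 1415 CPM in gastrocnemius) and -1.90 (cluster 13, at the myotendinous junction, 625.3 and 2338 CPM). For Myh1 nuclei it was -2.48 in cluster 2 and -1.94 in cluster 5, and for Myh2 nuclei -1.46 in cluster 5.

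Nuclei of other cell types carried Rbm20 UMIs too, at 86.0 CPM in plantaris and 382.7 CPM in gastrocnemius over all of them. The levels were between 56.7 (mesenchymal progenitors) and 147.7 CPM (tenocytes) in plantaris, and between 268.6 (mesenchymal progenitors) and 770.5 CPM (macrophages) in gastrocnemius. Per 100 Ttn UMIs, other cell types had 0.617 Rbm20 UMIs (0.567 to 0.670) in plantaris and 3.11 (2.92 to 3.30) in gastrocnemius, and myonuclei had 0.611 (0.595 to 0.627) and 2.76 (2.72 to 2.80). Other cells were therefore near all myonuclei pooled in this ratio, within counting error in plantaris and beyond it in gastrocnemius. The fibre types differed from each other. Myh4, Myh1 and Myh2 nuclei had 0.395, 1.26 and 1.41 in plantaris and 2.62, 5.095 and 3.925 in gastrocnemius. The gap in Rbm20 level between the muscles (log2 ratio -2.15 in other cells) was close to that of all myonuclei (-2.41). Whether the Rbm20 UMIs of other cell types came from the nuclei themselves or from free RNA was not tested.

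Of the 9 genes, only Rbm20 passed a 2-fold difference between the muscles over all myonuclei, where 11.5% of all genes tested did. It was also the only one in Myh4 nuclei (11% of all genes), Myh1 nuclei (17.1%) and Myh2 nuclei (13.7%), and Ryr2 had too few UMIs to be counted in the last 2 of these. The count for Rbm20 rests on its choice and nothing is read from it.

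The splicing targets of RBM20 differed little in abundance between the muscles. Ttn stood at 44370 CPM in Myh4 nuclei of plantaris and 51100 CPM in those of gastrocnemius (log2 ratio -0.20, -0.21 to -0.20), and its ratio was -0.15 in Myh1 and -0.03 in Myh2 nuclei. Within each library, Myh2 nuclei had less Ttn than Myh4 nuclei (log2 ratio -0.32 in plantaris and -0.50 in gastrocnemius). Camk2d, which encodes the delta isoform of calcium/calmodulin-dependent protein kinase II, had 278.6 CPM in Myh4 nuclei of plantaris and 333.8 CPM in those of gastrocnemius (-0.26, -0.32 to -0.20). Its ratio was 0.11 (-0.17 to 0.40) in Myh1 nuclei, where it turned negative under 3 alternatives, and -0.51 (-0.77 to -0.25) in Myh2 nuclei. In Myh7 nuclei Camk2d had 38 UMIs in 6 nuclei of plantaris and 12 UMIs in 22 nuclei of gastrocnemius, a log2 ratio of 3.30 (2.33 to 4.37). Camk2d and Celf1 (13 and 12 UMIs, ratio 1.75) were the members past 2-fold in those few nuclei, where 40.6% of all genes passed.

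Ryr2, the ryanodine receptor of heart and smooth muscle, was close to absent from myonuclei, with 14 UMIs in plantaris and 10 in gastrocnemius, both under 1 CPM. Its highest levels were in mural cells, the pericytes and smooth muscle cells of vessels, at 22.9 CPM (14.0 to 35.4) in plantaris and 69.7 CPM (46.3 to 100.7) in gastrocnemius, from 20 and 28 UMIs. The Ryr2 ratio between the muscles over myonuclei, 0.02 (-1.26 to 1.35), says nothing of a direction and changed sign under 4 alternatives.

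Rbm24, an RNA-binding protein that promotes exon inclusion in heart and skeletal muscle, differed in opposite directions between the muscles in type 2B and in the other fast nuclei. In Myh4 nuclei Rbm24 stood at 304.0 CPM in plantaris and 484.6 CPM in gastrocnemius (log2 ratio -0.67, -0.73 to -0.62). In Myh1 nuclei it stood at 596.6 CPM in plantaris and 450.5 CPM in gastrocnemius (0.41, 0.18 to 0.64), and in Myh2 nuclei at 493.1 and 419.3 CPM (0.23, 0.02 to 0.46). Seen within a library, Rbm24 was therefore higher in Myh2 than in Myh4 nuclei of plantaris (0.70, 0.60 to 0.80) and lower in those of gastrocnemius (-0.21, -0.41 to -0.01). The cluster mix bore on the Myh4 value: within clusters 0, 1, 4, 6 and 15 the Rbm24 ratio of Myh4 nuclei was between -1.30 and -1.08, that is, past 2-fold, while in cluster 2 it was -0.06 (-0.20 to 0.09) and in cluster 13 it was -0.45.

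The muscleblind genes behaved differently from each other. Mbnl1, the main muscleblind splicing factor of skeletal muscle, stood at 3587 CPM in Myh4 nuclei of plantaris and 4001 CPM in those of gastrocnemius (log2 ratio -0.16, -0.17 to -0.14). It was lower in Myh2 than in Myh4 nuclei of both libraries, by -0.78 in plantaris (-0.82 to -0.73) and -1.27 in gastrocnemius (-1.37 to -1.17). Its paralog Mbnl2 had 1598 CPM in Myh2 and 1383 CPM in Myh4 nuclei of plantaris, and 1850 and 1426 CPM in those of gastrocnemius, so it leaned the other way, with ratios of 0.21 (0.15 to 0.26) and 0.38 (0.28 to 0.47). Between the muscles, the Mbnl1 ratio was 0.38 in Myh1 and 0.34 in Myh2 nuclei, and the Mbnl2 ratio was -0.23 and -0.21.

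Rbfox1, which binds UGCAUG in introns and controls many muscle exons, followed Mbnl1. Its log2 ratio of Myh2 over Myh4 nuclei was -0.77 in plantaris (3540 and 6054 CPM) and -1.11 in gastrocnemius (3102 and 6692 CPM). Between the muscles the Rbfox1 ratio was -0.14 in Myh4 nuclei, 0.22 in Myh1 nuclei and 0.19 in Myh2 nuclei. Celf1, which opposes MBNL1 on many exons, was lower in plantaris in each of the 3 groups taken whole. Its ratio was -0.28 in Myh4 nuclei (365.0 CPM in plantaris and 441.8 CPM in gastrocnemius), -0.36 in Myh1 nuclei and -0.35 in Myh2 nuclei. The cluster mix bore on the Myh4 value here too. Within clusters 0, 1, 2, 4, 6 and 15 the Celf1 ratio of Myh4 nuclei was between -0.08 and 0.40, with each interval covering 0. In cluster 13, at the myotendinous junction, it was -0.49 (-0.89 to -0.09).

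**Figure D3:**
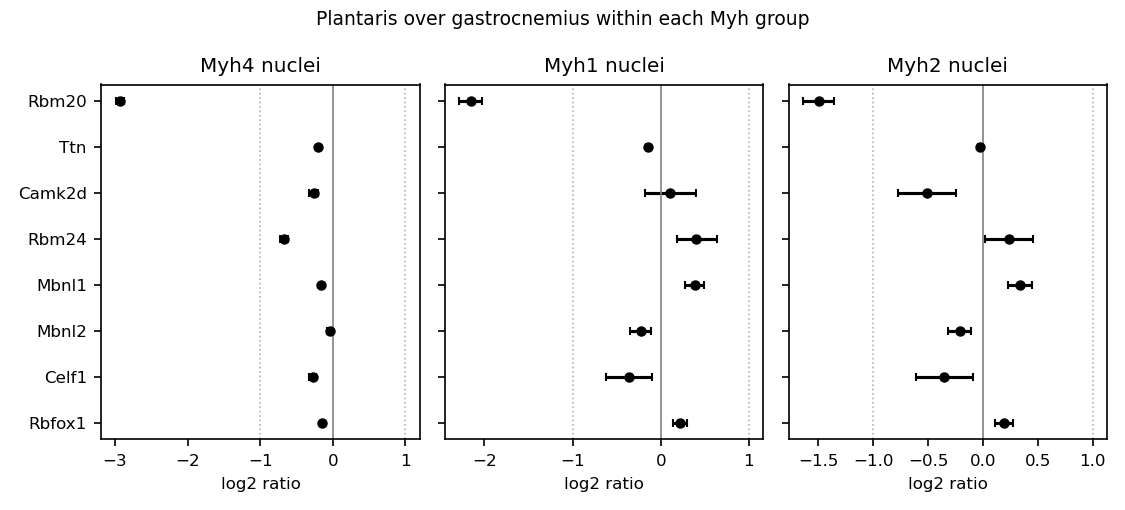
Log2 ratio of plantaris over gastrocnemius for 8 of the 9 genes in Myh4, Myh1 and Myh2 nuclei, with exact 95% counting intervals and dotted lines at 2-fold; Ryr2 is left out for its few UMIs. Rbm20 is past 2-fold in each panel, and Rbm24, Mbnl1 and Rbfox1 lie below 0 in Myh4 nuclei and above 0 in Myh1 and Myh2 nuclei.

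Of the genes with 20 or more UMIs (all but Ryr2), none passed 2-fold in the same direction in both libraries between Myh2 and Myh4 nuclei, where 21.6% of all genes passed in plantaris and 32.2% in gastrocnemius. Rbm20 passed in plantaris, and Mbnl1 and Rbfox1 passed in gastrocnemius. Once the level of the other cell types was subtracted, Rbfox1 passed in both libraries (-1.27 in plantaris and -1.88 in gastrocnemius). For Mbnl1 the subtraction gives no value that can be read, since its level in Myh2 nuclei of gastrocnemius (1657 CPM, 1546 to 1774) did not differ from that of other cell types (1653 CPM) beyond counting error. Between Myh1 and Myh4 nuclei, Rbm20 alone passed in plantaris (14.6% of all genes) and none passed in gastrocnemius (30.6%).

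**Figure D4:**
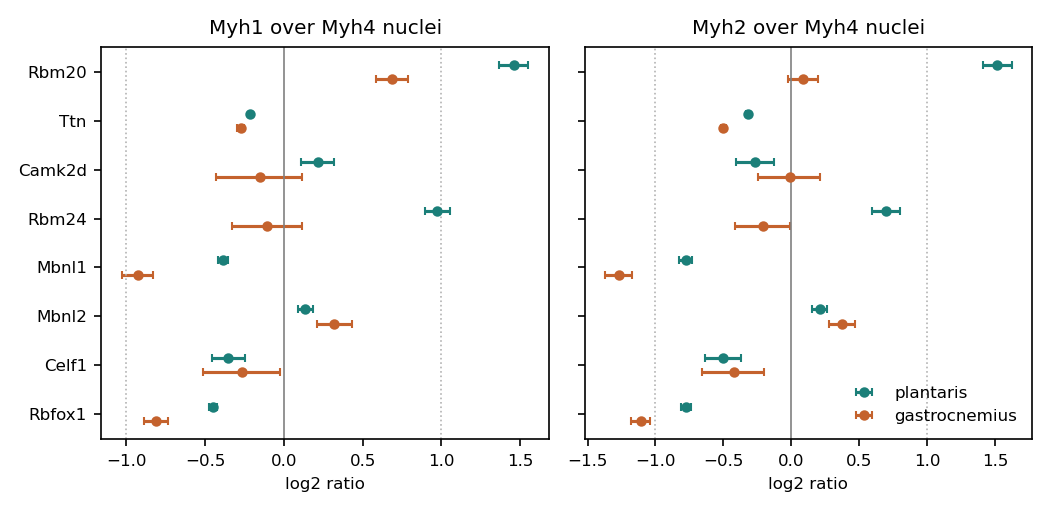
Log2 ratio of Myh1 over Myh4 nuclei (left) and of Myh2 over Myh4 nuclei (right) in plantaris and gastrocnemius, with exact 95% counting intervals and dotted lines at 2-fold. Rbm20 and Rbm24 have higher ratios in plantaris than in gastrocnemius on both panels, and Mbnl1 and Rbfox1 are negative in all 4 cases.

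Along a graded measure of fibre type, the share of Myh1 and Myh2 among a nucleus's Myh UMIs (nuclei with 10 or more of them), the same genes differed between steps. From 0% through above 0 to 10%, above 10 to 50%, above 50 to 90% and above 90%, Rbm20 in plantaris stood at 156.5, 158.4, 303.9, 423.1 and 498.9 CPM. In gastrocnemius it stood at 1282, 1187, 1584, 1767 and 1652 CPM, so most of its relative change lay in plantaris. Rbm24 ran between 285.1 CPM at 0% and 569.9 CPM above 90% in plantaris, and showed no such order in gastrocnemius, where it was 484.9 CPM at 0%, 549.8 CPM in the middle step and 427.6 CPM above 90%. Mbnl1 was highest at low shares and lowest above 90% in both libraries (2444 CPM in plantaris and 1746 CPM in gastrocnemius), as was Rbfox1 (3897 and 3138 CPM). The middle step of gastrocnemius held 39 nuclei and the smallest of plantaris 167.

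**Figure D5:**
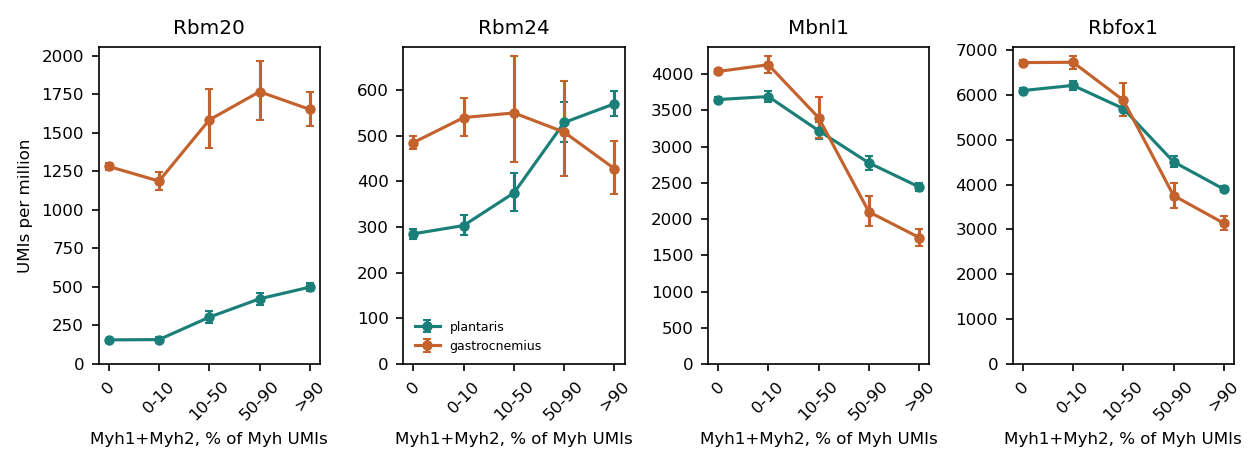
Levels of Rbm20, Rbm24, Mbnl1 and Rbfox1 (CPM) in 5 steps of the Myh1 plus Myh2 share of Myh UMIs, for plantaris and gastrocnemius, with exact 95% counting intervals. Rbm20 and Rbm24 are higher at the right end in plantaris, and Mbnl1 and Rbfox1 are lower there in both libraries.

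Nuclei beneath the myotendinous junction, where fibre ends meet the tendon, had more Rbm20 and Camk2d RNA than Myh4 nuclei. This cluster held 158 nuclei of plantaris and 99 of gastrocnemius, of which 76 in each library are also counted among the Myh4 nuclei. Camk2d had 1313 CPM there against 278.6 CPM in Myh4 nuclei of plantaris, a log2 ratio of 2.24 (2.13 to 2.35), and 797.1 CPM against 333.8 CPM in gastrocnemius, a ratio of 1.26 (1.06 to 1.45). Among the classes other than myonuclei the highest Camk2d level was in mesenchymal progenitors, with 504.6 CPM in plantaris and 570.1 CPM in gastrocnemius. The 6 Myh7 nuclei of plantaris, of which 50% held a Camk2d UMI, had 1762 CPM (1247 to 2418). Rbm20 had 859.1 CPM in junctional nuclei of plantaris and 2357 CPM in those of gastrocnemius, with ratios to Myh4 nuclei of 2.29 (2.15 to 2.43) and 0.82 (0.71 to 0.93). The Rbm24 ratios were 1.08 (0.93 to 1.23) and 0.52 (0.31 to 0.72). Against Myh1 nuclei the gaps were smaller. Rbm24 had 643.0 CPM in junctional and 596.6 CPM in Myh1 nuclei of plantaris, with overlapping intervals, and 695.4 and 450.5 CPM in gastrocnemius. Rbm20 in Myh1 nuclei had 482.6 CPM in plantaris and 2154 CPM in gastrocnemius, where its interval overlapped that of junctional nuclei. The part of the fibre mix in the junctional values was not tested. Against Myh4 nuclei, 3 of the genes passed 2-fold in plantaris, where 24.6% of all genes did, and 1 passed in gastrocnemius, where 32.4% did. Shares of all genes beside the small junction groups can include counts of 0 that were set to 3. At the neuromuscular junction, with 81 nuclei of plantaris and 96 of gastrocnemius, none of the same 8 genes passed 2-fold in either library (31.9% and 37.6% of all genes did). Mbnl2 had the highest ratio there, with values to Myh4 nuclei of 0.83 in plantaris and 0.66 in gastrocnemius, and Rbm24 was lower, with -0.82 and -0.53.

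Set against all myonuclei, the other cell types had over 2-fold less Rbm20, Ttn, Rbm24, Mbnl1 and Rbfox1 and over 2-fold more Ryr2 in both libraries. Of all genes, 34.9% in plantaris and 34.4% in gastrocnemius were over 2-fold higher in other cells, and 10.6% in each library were over 2-fold lower. Camk2d was higher in other cells, with 448.1 CPM against 288.0 CPM in plantaris and 517.8 CPM against 336.8 CPM in gastrocnemius. Per 100 Ttn UMIs, Camk2d was 3.21 in other cells and 0.678 in myonuclei of plantaris, and 4.20 and 0.672 in gastrocnemius. Celf1 was 2.85 and 0.809 in plantaris and 3.21 and 0.866 in gastrocnemius on that scale. Mbnl2 was 7.81 and 3.36 in plantaris and 7.82 and 2.92 in gastrocnemius. Mbnl1 was 10.6 and 7.77 in plantaris and 13.4 and 7.67 in gastrocnemius. These 4 genes therefore did not keep their myonuclear ratio to Ttn in other cells. Rbfox1 nearly did, with 12.7 and 13.1 in plantaris and 14.3 and 12.9 in gastrocnemius, as Rbm20 did against all myonuclei pooled. Rbm24 nearly did in plantaris, with 0.807 and 0.857, and less so in gastrocnemius, with 1.24 and 0.960.

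Within a library, no relation past 1.5-fold between Rbm20 and its targets or the other regulators was seen across Myh4 nuclei (Ryr2 not counted). The counts are too sparse to exclude one. Thinned Myh4 nuclei held a mean of 0.183 Rbm20 UMIs in plantaris and 1.42 in gastrocnemius. Thinned Myh4 nuclei with an Rbm20 UMI were set against those without one, and none of the other genes with 20 or more UMIs (all but Ryr2) passed 1.5-fold in either library, where 20.7% of all genes passed in plantaris and 12.5% in gastrocnemius. Those shares cover genes with as few as 20 UMIs, where counting error alone can pass 1.5-fold. Ttn stood at 45609 CPM in Rbm20-positive and 45849 CPM in Rbm20-zero nuclei of plantaris, and at 51451 and 52382 CPM in gastrocnemius. Rbm24 was at 334.8 and 271.1 CPM in plantaris (log2 ratio 0.31, 0.08 to 0.52) and at 465.2 and 485.2 CPM in gastrocnemius (-0.06, -0.19 to 0.07). When 2 or more Rbm20 UMIs defined a positive nucleus, the Rbm24 ratio was 0.46 in plantaris and -0.01 in gastrocnemius. Pearson correlations of Rbm20 with the others, across 4136 nuclei of plantaris and 4427 of gastrocnemius thinned to the same depth, were between -0.036 and 0.043 in plantaris and between -0.039 and 0.026 in gastrocnemius. The 28 correlations among all members but Ryr2 lay between -0.054 and 0.052 in plantaris and between -0.055 and 0.03 in gastrocnemius, and in counts this sparse such values are no finding. In the smaller Myh2 group of gastrocnemius, Rbm24 was past 1.5-fold at 0.85 (-0.05 to 1.85) from 52 UMIs in positive and 13 UMIs in zero nuclei, where 25.7% of all genes passed.

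The genes whose counts followed Rbm20 most closely across thinned Myh4 nuclei of both libraries, out of 1477 ranked, included Actn2, Esrrg, Ank2, Prkg1 and Mybpc1. Their correlations were still low, with Actn2, which encodes the Z-disc cross-linker alpha-actinin-2, at 0.143 in plantaris and 0.178 in gastrocnemius, and Mybpc1, which encodes slow myosin-binding protein C, at 0.085 and 0.188. Esrrg, a nuclear receptor gene of oxidative fibres, was at 0.121 and 0.195. Actn2 itself had 4495 CPM in Myh1 and 856.2 CPM in Myh4 nuclei of plantaris, and 5380 and 359.8 CPM in gastrocnemius, so it was higher in Myh1 than in Myh4 nuclei of both. In Myh4 nuclei its difference between the muscles ran opposite to that of Rbm20, with a log2 ratio of 1.25. In Myh1 nuclei the Actn2 ratio was -0.26 (-0.33 to -0.19), the same direction as Rbm20, and in Myh2 nuclei it was 0.09.

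Across 11 classes in both libraries (22 points, which share their library and its depth), the profile most like that of Rbm20 among 10422 genes was that of Mir133a-1hg, the host transcript of a muscle microRNA, with a Pearson correlation of 0.924. Fbxo40 (0.919) and Asb15 (0.888), which encode substrate adaptors of ubiquitin ligases, Myl1 (0.887), a fast myosin light chain gene, Ppp1r3a (0.875), which encodes a glycogen-targeting phosphatase subunit, and Homer1 (0.860), which encodes a scaffold protein, came next. Mir133a-1hg had 147.8 CPM in Myh4 nuclei of plantaris and 542.0 CPM in those of gastrocnemius (log2 ratio -1.88), and Myl1 had 666.8 and 2533 CPM (-1.93). These genes were picked for sharing both the myonuclear level and the gap between the libraries. Of the other 8 genes, Rbm24 ranked highest at 14 (0.788), followed by Ttn at 131 (0.616).

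Among 20 listed target genes of RBM20, the median log2 ratio between the muscles over all myonuclei was -0.14, beside 0.18 over all genes. Only Tpm1, which encodes an alpha-tropomyosin of the thin filament, passed 2-fold, with 1527 CPM in plantaris and 3584 CPM in gastrocnemius (-1.23, -1.25 to -1.21). It is 1 of 20, beside 11.5% of all genes. Of the list's other genes, chosen for mention after their values were seen, Trdn, which encodes the calcium-release protein triadin, was at -0.41, the Z-disc gene Ldb3 at -0.02 and Lmo7 at 0.74.

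Of 38 listed splicing regulators, 37 had 20 or more UMIs, and their median was 0.15, which turned to -0.03 under median-ratio scaling. With Rbm20, 3 of the 37 passed 2-fold, or 8.11% beside 11.5% of all genes. The other two were higher in plantaris: Rbm38, an RNA-binding protein gene active in muscle differentiation (57.5 CPM in plantaris and 26.8 CPM in gastrocnemius, log2 ratio 1.10), and Khdrbs3, which encodes a STAR-family splicing factor (50.9 and 22.2 CPM, 1.20). Other list members, chosen for mention after their values were seen, did not reach 2-fold, with Celf2 at -0.61, Ptbp2 at -0.47, Rbfox2 at 0.28, Qk at 0.73 and the muscle-specific SR-protein kinase gene Srpk3 at 0.96.

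All 26 listed genes of titin-binding partners were measured, with a median of 0.07 that turned to -0.11 under median-ratio scaling. None was over 2-fold lower and 5 were over 2-fold higher in plantaris, 19.2% of the list beside 11.5% of all genes. Within fibre types the calls ran both ways, with 5 higher and 2 lower in Myh4 nuclei, 3 and 2 in Myh1 nuclei and 3 and 3 in Myh2 nuclei, out of 25 measured in each. The 5 over all myonuclei were Mybpc1 (2664 CPM in plantaris and 634.9 CPM in gastrocnemius, log2 ratio 2.07), which is also among the markers used to name myonuclei, Actn2 (1882 and 712.1 CPM, 1.40), the LIM protein gene Fhl1 (171.6 and 46.7 CPM, 1.88) and the chaperone genes Cryab (66.1 and 10.3 CPM, 2.69) and Hsp90aa1 (44.8 and 8.12 CPM, 2.46). Myonuclei of plantaris held more Myh1 and Myh2 nuclei than those of gastrocnemius, and within one fibre type the values differed: Actn2 was at 1.25 in Myh4 nuclei, -0.26 in Myh1 nuclei and 0.09 in Myh2 nuclei, and Cryab at 2.98, 1.18 and 1.30. The part of the fibre mix in the values over all myonuclei was not tested.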

How the data were processed

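Plantaris and gastrocnemius nuclei were stained with propidium iodide, sorted and made into 3' libraries, per the labels' protocols. Per the submitters' processing notes, Cell Ranger 6.0.1 and the mm10 build were used. The authors deposited whole-number UMI counts per gene and nucleus, with a table giving the library of each barcode. Sources used here do not name the annotation, the treatment of intronic reads or the way nuclei were called. The 9 genes, the gene lists and the comparisons were chosen with earlier results of these data known.

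A nucleus needed at least 200 genes and less than 5% mitochondrial UMIs, and 6 nuclei of plantaris and 0 of gastrocnemius failed. A doublet caller (scrublet in scanpy 1.11.5) marked 1 nucleus of plantaris and 2 of gastrocnemius, which were removed. As this is under 0.5%, the caller is not taken to have worked and doublets are still present. Counts without the 9 genes were scaled to 10000 per nucleus, and 2000 variable genes and 30 principal components were clustered with leidenalg 0.10.2 (15 neighbours, resolution 1, seed 0). Clusters were named from marker genes. The rule that left a cluster unnamed, for markers of myonuclei and of another type, was set after the clusters were seen, and 510 nuclei of plantaris and 523 of gastrocnemius stayed unnamed. Fibre type was the Myh gene with the most UMIs among myonuclei with 3 or more Myh UMIs, ties left out.

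Counts were summed per class and library and divided by the class total. With 1 library per muscle no test was made, and a size of 2-fold (1.5-fold for Rbm20-positive nuclei) with 20 or more UMIs was used to count genes. Ratio intervals are exact binomial, level intervals exact Poisson and shares Clopper-Pearson. Genes named by rule besides the 9 are those of each list past 2-fold over all myonuclei (at most 8), and the 6 most like Rbm20 by each of 2 measures: the lower of the libraries' correlations across thinned Myh4 nuclei, and the correlation of log2(CPM + 1) across classes and libraries. Of the lists, 8 other genes (Trdn, Ldb3, Lmo7, Celf2, Ptbp2, Rbfox2, Qk and Srpk3) were chosen for mention after their values were seen. One gene that the rule names is not reported here. The ratio and association steps were run on simulated counts with known changes. The simulated nuclei had either much Rbm20 or none, unlike the graded levels here. That run therefore does not show how weak a relation could be seen in these data. Gene positions are from GENCODE M21, which holds 31490 of the 32285 names, and promoters from RefSeq. Python 3.11.15, scipy 1.17.1, numpy 2.4.6 and pandas 2.3.3 were used. The alternatives tried were another scaling, depth, averaging, filters on Myh UMIs and purity, nuclei left out, and subtraction of the level in other cell types.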

Additional observations from a re-analysis of the deposited data

Results flagged for a closer look

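Rbm24 differed in direction between the libraries and between the fibre types. Its log2 ratio of Myh2 over Myh4 nuclei was 0.698 in plantaris and -0.209 in gastrocnemius, and its ratio of plantaris over gastrocnemius was 0.405 in Myh1 nuclei and 0.234 in Myh2 nuclei but -0.673 in Myh4 nuclei. Mbnl1 likewise had muscle ratios of 0.384 in Myh1 and 0.336 in Myh2 nuclei but -0.158 in Myh4 nuclei, and Rbfox1 had 0.217 and 0.191 but -0.144. Within cluster 2 the directions did not differ for these genes. There the Myh4 ratios were 0.102 (0.048 to 0.157) for Mbnl1 and 0.098 (0.055 to 0.14) for Rbfox1, and the Myh1 ratios were 0.379 and 0.292. In the other clusters examined, the Myh4 ratios of both genes were below 0. With 1 library per muscle these differences in direction were not tested.

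One unnamed cluster, which carried markers of both myonuclei and mesenchymal progenitors and entered no class, also held Rbm20 UMIs. Its 484 nuclei of plantaris had 196.1 CPM and its 487 nuclei of gastrocnemius had 1015 CPM, both above the limit that a count of 0 allows, at median depths of 1107 and 990 UMIs.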

How the results depend on the processing

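No paired analysis was possible because each muscle is 1 library. All 38 values of the Rbm20 ratio between the muscles were at -1 or below, and no value reversed. Over all myonuclei (-2.41) it was -2.593 under median-ratio scaling, -2.472 over all nuclei with 3 or more Myh UMIs, -2.656 where 80% of Myh UMIs came from the leading gene, -2.497 without junction clusters and -2.525 with the level of other cell types subtracted. In Myh4 nuclei (-2.93) these were -3.13 under median-ratio scaling, -2.998 at 80% purity and -3.416 after subtraction, and -3.106 as the mean of within-cluster ratios, an alternative chosen after seeing the data. In Myh1 nuclei (-2.16) it was -2.289 at 80% purity and -2.286 without the 10% deepest nuclei, and in Myh2 nuclei (-1.50) it was -1.321 after thinning and -1.315 after subtraction. The count of genes past 2-fold between Myh2 and Myh4 nuclei in both libraries was 0, but 2 after subtraction and 1 without a minimum of UMIs (Ryr2, at 0 UMIs in Myh2 nuclei). The 2 are Rbfox1 and Mbnl1, and the Mbnl1 call is void because its level in Myh2 nuclei of gastrocnemius was within counting error of the level subtracted. The Ryr2 call is void as well. It is for a higher level in Myh2 nuclei (1.01 in plantaris and 3.09 in gastrocnemius), and comes only from setting 0 UMIs to 3. Median-ratio scaling gave list medians of -0.319 for RBM20 targets, -0.027 for splicing regulators and -0.107 for titin-binding partners. Thinning to 2000 UMIs gave shares of Myh4 nuclei with an Rbm20 UMI of 23.933% in plantaris and 82.111% in gastrocnemius, and 10 or more Myh UMIs gave 63.645% in gastrocnemius. The causes of these shifts were not tested. Of 538 values for single genes, 390 kept their sign and stayed within the interval of the main value. The other 148 left that interval or changed sign. Among them 18 changed sign, those of Ryr2 and Camk2d while still within the interval. The 18 were all of Ryr2, of Camk2d in Myh1 nuclei or between Myh2 and Myh4 nuclei of gastrocnemius, or of Rbm20 between Myh2 and Myh4 nuclei of gastrocnemius. The 11 values that moved by over 1.5-fold were all from subtraction. They were 5 of Mbnl1, 3 of Mbnl2 (plantaris over gastrocnemius, -0.66 for Myh4 nuclei, -0.92 for Myh1 and -0.80 for Myh2), 1 of Rbfox1 (-1.88 between Myh2 and Myh4 nuclei of gastrocnemius) and 2 of Rbm20 in plantaris (2.22 for Myh2 and 2.15 for Myh1 over Myh4 nuclei). Few UMIs limit the Ryr2 ratios in myonuclei, and few nuclei the values of Myh7 nuclei.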
